A study of Homo sapiens and Mus musculus with 16 samples.

Results

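Replication-dependent histone genes encode the proteins that package newly made DNA, and their transcripts were followed here in P-bodies and in the cytoplasm around them. P-bodies are cytoplasmic granules of RNA and protein that hold untranslated mRNA. Members were taken by gene symbol alone, as the clustered genes of the linker histone H1 and of the core histones H2A, H2B, H3 and H4. This gave 64 of 22286 genes in the human table, of which 6 encode H1, 15 H2A, 17 H2B, 13 H3 and 13 H4. Among 15881 mouse genes 57 matched, with 17 for H2A, 17 for H2B, 11 for H3 and 12 for H4. No mouse H1 gene matched, because that table lists them under symbols starting with H1f.

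The 16 libraries came from 4 cell types, and in each of them 2 were made from sorted P-bodies and 2 from the cytoplasm. HEK293T (line HEK293T-LSM14a-GFP) derives from human embryonic kidney. Both the liver bud progenitors and the day 20 neurons were differentiated from human ES cells (line UCLA4-LSM14a-GFP), and mouse embryonic stem cells (mESC, line KH2-LSM14a-GFP) were kept in serum-LIF. All of them, in both fractions, expressed the P-body protein LSM14A fused to GFP, which was used to sort the particles. The fusion was delivered to HEK293T and mouse ES cells in a lentiviral vector with an EF1a promoter, and to the human ES cells as a tet construct at the AAVS1 safe-harbour site. The cytoplasm is the unsorted particle suspension left after nuclei were spun out and particles were pelleted, not the whole cell. HEK293T and mESC libraries were made from total RNA with random primers, and liver bud and neuron libraries are labelled polyA RNA. In a comparison of HEK293T with the other human cells, cell type and library kind therefore cannot be told apart.

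Histone mRNAs of this group are made mainly while DNA is copied. Unlike other mRNAs they are known to end in a short stem loop instead of a poly(A) tail, and the stem-loop binding protein SLBP follows them from processing to translation and decay. When DNA synthesis stops, they are degraded after uridines are added at the 3′ end. H2A, H2B, H3 and H4 form the nucleosome core, and H1 binds the DNA that links nucleosomes.

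The stem loops are shown because they are what the group shares at the RNA level and what separates its H4 class. The stem-loop motif (GG, 2 free bases, CT, 2 free bases, T, 1 free base, AG, 2 free bases, CC) was searched on the transcript strand, and the 6 bases on each side had to pair, with G-T pairs allowed. All 64 human members have an annotated transcript with it in GENCODE v44 (hg38), against 191 of 61228 gene names (0.312%), members included, that hold it anywhere in a transcript. In the windows below, printed 5′ to 3′, capitals mark the 16-base stem loop.
H4C3: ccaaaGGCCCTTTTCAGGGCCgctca
H4C5: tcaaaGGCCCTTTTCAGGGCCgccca
H4C4: ccaacGGCCCTTTTCAGGGCCaccta
H4C14: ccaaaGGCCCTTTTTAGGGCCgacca
H2AC6: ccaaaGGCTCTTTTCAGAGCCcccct
H2BC21: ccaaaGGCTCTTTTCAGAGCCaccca
H1-1: ccaacGGCTCTTTTAAGAGCCaccta
H2AC15: aaaaaGGTTCTTTTCAGAGCCaccta
All 13 H4 members have a stem that opens with GGCCC, and 0 of the 51 other members do. The commonest form in the other classes, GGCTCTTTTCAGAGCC, occurs in 37 members. Of the 64 stems, 62 pair without a G-T pair, and H2AC11 and H2AC15 hold 1 each. A match of letters is a description of the annotation and says nothing of binding in these cells.

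The human members lie in 3 clusters. On chromosome 6, 32 lie within chr6:25726777-26285638 and 21 within chr6:27125897-27893891, and 11 lie within chr1:149782689-149887965 (all hg38). The window printed above for H4C3, stem loop and flanking bases, spans chr6:26104312-26104337 on the plus strand. It holds the last bases of the annotated transcript, which makes the stem loop a 3′ UTR feature. The window of H2BC21 spans chr1:149886183-149886208 on the minus strand, and the annotated transcript of H2BC21 runs on past it for a total of 2224 bases. Transcripts of at least 1000 bases are annotated for 10 members, namely H2AC6, H2BC4, H2BC6, H2BC15, H2BC21, H3C6, H3C10, H4C8, H4C14 and H4C15, and 9 of these hold AATAAA, the usual polyadenylation signal, in the last 50 bases.

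Library totals ran from 6368953 to 17972284 counts, and 3 counts, used as the floor of detection, came to 0.167 to 0.471 CPM (counts scaled to a common library total). Ribosomal RNA genes took 3.09% to 13.4% of counts in P-body libraries and 9.63% to 24.9% in cytoplasm libraries. The 10 neuronal markers summed to 9851 CPM or more in each neuron library and to 245 or less in each liver bud library. The 10 hepatic endoderm markers were less distinct, at 223 and 231 CPM in liver bud P-bodies and 478 and 463 in liver bud cytoplasm, against 59.1 to 272 in neurons. The 9 pluripotency markers present summed to 1179 to 1501 CPM in the liver bud libraries.

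The first question was how the histone mRNA of each class divides between P-bodies and cytoplasm. Liver bud and neuron libraries are labelled polyA RNA, while these mRNAs are known to end without a poly(A) tail. How far such libraries captured them was not tested, so liver bud and neuron values describe only the histone RNA that was captured. Summed over all members, HEK293T held 1188 and 1164 CPM in P-bodies and 4945 and 5274 CPM in cytoplasm, 4.34-fold more in the cytoplasm. Liver bud progenitors held 3920 and 3706 CPM in P-bodies and 2022 and 2262 CPM in cytoplasm, 1.78-fold more in P-bodies. Neurons held 1156 and 1176 CPM in P-bodies and 2054 and 2055 CPM in cytoplasm, 1.76-fold more in the cytoplasm. Liver bud progenitors were thus the human cells in which these mRNAs were more abundant in P-bodies, and in none of the 3 did the fractions overlap. In mESC the 57 members summed to 768 and 725 CPM in P-bodies and 1450 and 1507 CPM in cytoplasm, 1.98-fold more in the cytoplasm. Sums were not tested, since an exact permutation test of 2 against 2 libraries cannot go below p = 0.33.

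**Figure D1:**
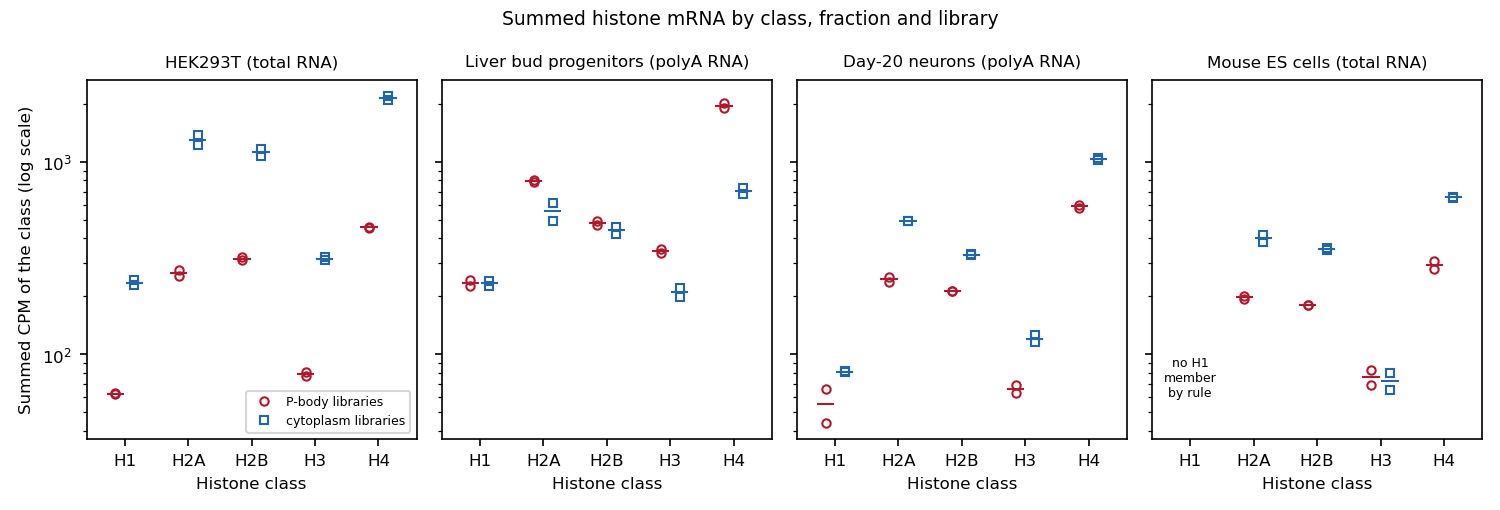
Summed CPM of each histone class on a log axis, by cell type, with 1 point per library (red circles P-bodies, blue squares cytoplasm) and a bar at the mean of 2 libraries. H4 is the most abundant class in all 4 cell types, and in liver bud progenitors its P-body libraries, at 2023 and 1891 CPM, lie above the cytoplasm libraries, at 677 and 729 CPM.

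The classes did not divide alike in liver bud progenitors. H4 mRNA, which encodes the least varied core histone, summed to 2023 and 1891 CPM in P-bodies against 677 and 729 in cytoplasm, a 2.78-fold difference. H3 was 1.64-fold and H2A 1.43-fold higher in P-bodies, without overlap of libraries. H2B summed to 495 and 469 CPM against 423 and 459, a log2 ratio of 0.13 that became -0.01 when ribosomal RNA was left out of the library total and 0.31 with TMM scaling. For H1, at 242 and 227 CPM against 227 and 240, the libraries of the fractions overlapped, and the log2 ratio of 0.01 also changed sign between those scalings (-0.13 and 0.19). In HEK293T all 5 classes were 3.56-fold to 4.91-fold higher in the cytoplasm, and in neurons 1.47-fold to 2.01-fold. The mESC libraries showed the same side for H2A, H2B and H4, but for H3 they overlapped, at 82.8 and 69.7 CPM in P-bodies and 65.2 and 80.4 in cytoplasm. The gene H3c15 alone made up 61.1% of that H3 mean in P-bodies, at 46.6 CPM, and 22.9% in cytoplasm, at 16.7 CPM.

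Gene by gene, fractions were compared within each cell type with the edgeR quasi-likelihood test on TMM-scaled counts, and a gene was called at a Benjamini-Hochberg adjusted p under 0.05 over all genes tested. In HEK293T 60 members had counts, and 0 were called higher and 39 lower in P-bodies, where 42.5% of all genes were called, 19.5% higher and 23% lower. Their median log2 change was -1.84, against -0.01 for all genes. The lower calls covered 3 of 5 H1, 12 of 15 H2A, 10 of 16 H2B, 6 of 12 H3 and 8 of 12 H4 members tested. The 4 members with a fitted change above 0 in HEK293T, seen in the plot of member changes, were not called.

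H4C3 had the highest level in HEK293T and among the smallest p-values. Its P-body libraries held 192 and 205 CPM and its cytoplasm libraries 977 and 1025 CPM, a log2 change of -2.20 (SE 0.06). H4C4, another H4 gene with the same stem-loop letters, had 27.0 and 26.4 CPM in P-bodies and 279 and 261 in cytoplasm (-3.21, SE 0.08). H2AC13 had 19.0 and 17.5 CPM against 162 and 206 (-3.20, SE 0.09). Each fraction's libraries lay far apart from the other's. Only 41.2% of the 100-base stretches of H2AC13 are unique among histone transcripts, so part of its count may belong to related genes. Of the most abundant member of each other class, H2AC6 changed by -1.83, H2BC4 by -1.89, H3C2 by -2.02 and H1-4 by -1.58 (adjusted p of 1.31e-76 or less in edgeR).

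In liver bud progenitors all 64 members had counts. Of these, 36 were called higher and 2 lower in P-bodies, where 39% of all genes were called, 21.7% higher and 17.3% lower. The members' median log2 change was 0.73, against -0.09 for all genes. H4 led, with 12 of 13 called higher and a median of 1.35, followed by H3 with 7 of 13 and 0.89, H2A with 8 of 15 and 0.67, and H2B with 7 of 17 higher, 2 lower and 0.40. Of the H1 genes 2 of 6 were called higher, with a median of 0.01.

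H4C3 reached 832 and 733 CPM in liver bud P-bodies and 215 and 202 CPM in the cytoplasm, so that the log2 change was 2.1 (SE 0.06). H4C5 reached 644 and 615 CPM against 256 and 303 (1.35, SE 0.06). Both H4 genes were higher in every P-body library than in any cytoplasm library. H4C4 was at 162 and 154 CPM against 68.9 and 83.7 (1.23, SE 0.08). The top member of each other class moved less, and all of these were called, with H3C4 at 125 and 133 CPM against 65.2 and 74.2 (1.07), H2AC6 at 222 and 222 against 124 and 155 (0.85) and H2BC14 at 101 and 93.3 against 86.5 and 73.3 (0.47). The top H1 gene, H1-1, had overlapping libraries, at 117 and 110 CPM against 108 and 115. Its call (0.21, edgeR adjusted p = 0.0151) was lost with DESeq2 (adjusted p = 0.149), with library size scaling (adjusted p = 0.834) and without the first P-body or the first cytoplasm library.

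The 2 members called lower in liver bud P-bodies were both H2B genes with a long annotated transcript. H2BC21 had 5.97 and 7.79 CPM in P-bodies and 11.1 and 18.3 in cytoplasm (-0.92, SE 0.22, edgeR adjusted p = 0.000151). H2BC6 had 21.1 and 18.6 CPM against 28.3 and 31.3 (-0.40, SE 0.15, edgeR adjusted p = 0.0172). Neither gene's fractions overlapped, but H2BC21 went to -0.54 and was not called without the second cytoplasm library (adjusted p = 0.189), and H2BC6 was not called without the same library (-0.36), without the second P-body library (-0.31) or with DESeq2 (-0.42).

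**Figure D2:**
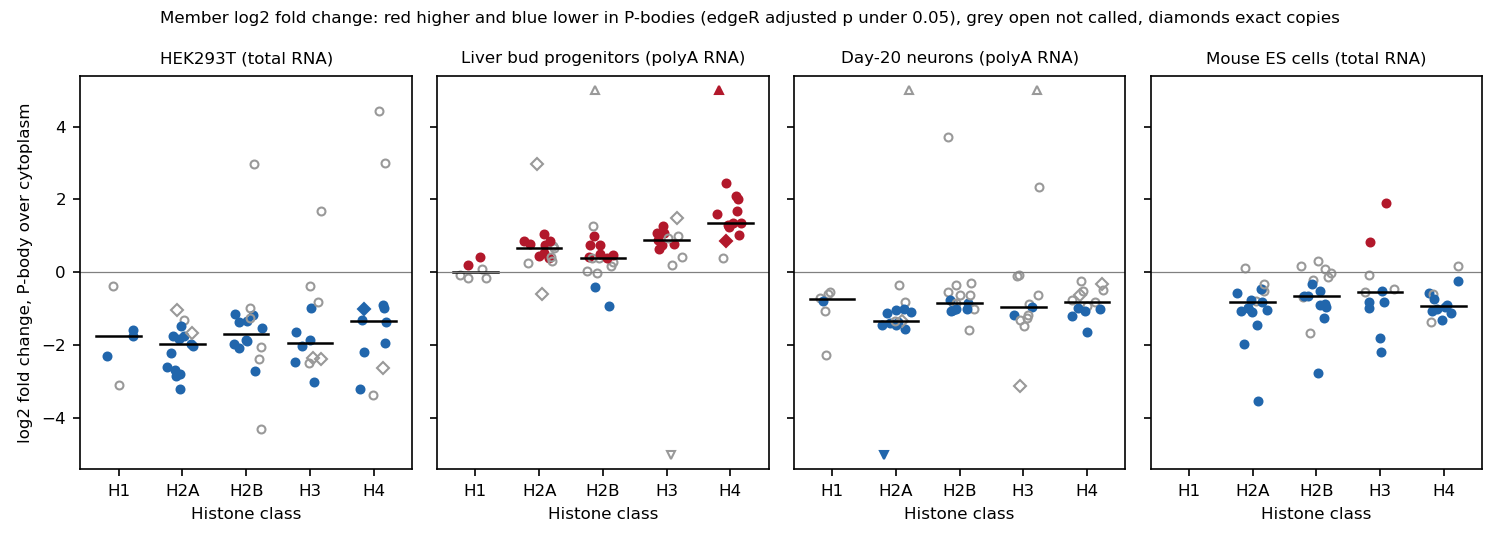
Log2 fold change of each member, P-bodies over cytoplasm, by class and cell type, from edgeR, with 1 point per gene, black bars at class medians, red for called higher, blue for called lower, grey open points for not called, diamonds for genes with an exact copy, and triangles for values beyond 5 on either side drawn at the edge. Liver bud progenitors hold 36 members called higher, with H4 at a median of 1.35, while calls in HEK293T (39) and neurons (24) are all lower.

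In neurons 63 members had counts, and 0 were called higher and 24 lower in P-bodies, where 29.3% of all genes were called, 14.8% higher and 14.5% lower. The median log2 change of the members was -0.96, against 0.19 for all genes. Lower calls covered 10 of 15 H2A, 6 of 16 H2B, 5 of 13 H4, 2 of 13 H3 and 1 of 6 H1 members. H4C5 had 384 and 390 CPM in neuronal P-bodies and 689 and 689 CPM in cytoplasm (-1.0, SE 0.07, edgeR adjusted p = 4e-08). H4C3 had 108 and 117 CPM against 200 and 218 (-1.06, SE 0.10, edgeR adjusted p = 5.54e-07). H2AC20 was at 27.3 and 25.4 CPM against 62.7 and 66.1 (-1.45, SE 0.16). None of these overlapped between fractions. Fewer members, 15, were called lower without the first cytoplasm library, and H1-4 (-0.65) and H3C4 (-0.77) were among those lost, while 45 were called with all human libraries in a single fit.

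H2AC7 was called lower in neurons with 0 and 0 counts in P-bodies and 11 and 9 in the cytoplasm. At the floor of 3 counts per library it was at least 2.75-fold lower in P-bodies.

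In mESC, 2 of 57 members were called higher and 36 lower in P-bodies, where 47.6% of all genes were called, 26.1% higher and 21.4% lower. Their median log2 change was -0.76, against -0.11 for all genes. The lower calls covered 12 of 17 H2A, 9 of 17 H2B, 9 of 12 H4 and 6 of 11 H3 members. H4c4 had 90.7 and 74.9 CPM in P-bodies and 219 and 204 in cytoplasm (-0.95). H4c3 had 76.9 and 71.7 CPM against 161 and 167 (-0.74), and H2bc15 had 11.8 and 15.4 against 43.2 and 42.2 (-1.26). The fractions did not overlap for any of these, nor for the most abundant H2A and H2B genes, H2ac18 (-0.45) and H2bc18 (-0.91).

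The members called higher in mESC P-bodies were H3 genes, and 5 others with a fitted change above 0 were not called. H3c15, the most abundant H3 member there, had 54.9 and 38.3 CPM in P-bodies and 13.99 and 19.3 in cytoplasm (1.89, edgeR adjusted p = 0.00137). H3c13 had 6.57 and 7.63 CPM against 5.15 and 5.34 (0.84), and was not called with DESeq2 (0.83) or library size scaling (0.43). Reads of H3c15 and H3c13 may be shared with near-identical genes, and the mouse sequences were not analysed here. The 5 mouse genes H1f1 to H1f5, outside the symbol rule and added here after their values were seen, were all called lower in P-bodies, at -0.37 to -1.19, and summed to 86.8 and 84.0 CPM against 205 and 208.

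Ribosomal RNA and the summed level of 8 RNAs kept in the nucleus were lower in P-bodies in every cell type. In the order P-bodies against cytoplasm, ribosomal RNA took 4.75% and 4.32% against 16.6% and 15.9% of HEK293T counts, 12.8% and 12.5% against 20.4% and 21.1% of liver bud counts, 13.4% and 11.4% against 24.9% and 21.5% of neuron counts, and 3.16% and 3.09% against 9.63% and 11.0% of mESC counts. The nuclear RNAs summed to 2156 and 2287 against 8840 and 9965 CPM in HEK293T, to 2292 and 2274 against 4568 and 4812 in liver bud progenitors, and to 3477 and 3616 against 7855 and 8179 in neurons. In mESC, 6 of them summed to 631 and 636 against 790 and 810 CPM. Gene by gene the nuclear RNAs did not move alike, with 3 called higher and 4 lower in HEK293T, 0 and 7 of 8 in liver bud progenitors, 0 and 6 in neurons, and 1 and 3 of 6 in mESC. Over all genes the shares were 19.5% and 23%, 21.7% and 17.3%, 14.8% and 14.5%, and 26.1% and 21.4% in the same order. Median log2 changes of the nuclear RNAs were -0.25, -1.31, -1.26 and -0.5, against -0.01, -0.09, 0.19 and -0.11 for all genes. In HEK293T NEAT1 (1.61) and MALAT1 (0.22) were higher in P-bodies and RN7SK (-2.31) was lower. Both sums were lower in P-bodies also in liver bud progenitors, where the histone members were higher. Their part in the histone results was not tested.

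The fraction effect was next compared between cell types. No member was called in the same direction in all 3 human cell types, among 59 tested in each. Of the 39 members lower in HEK293T P-bodies, 24 were higher in liver bud P-bodies and 20 were lower in neuronal P-bodies. A set of 14 was lower in both HEK293T and neurons and higher in liver bud progenitors. The same overlaps were not counted over all genes, so these counts are not read as particular to the members. These counts come from separate tests, and the differences themselves were tested as the interaction of cell type and fraction over 8 libraries.

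Neurons and liver bud progenitors share the stem cell line and the library kind. For 39 of 64 members the P-body enrichment was lower in neurons, and for 0 it was higher, where 18.4% of all genes were called, 9.6% higher and 8.82% lower. The median difference over members was -1.78 on the log2 scale, against 0.23 for all genes. Lower calls covered 10 of 13 H4, 10 of 15 H2A, 7 of 13 H3, 9 of 17 H2B and 3 of 6 H1 members. For H4C3 the difference was -3.16 (SE 0.11), for H4C5 -2.36 (SE 0.11) and for H4C4 -2.23 (SE 0.18), each with an edgeR adjusted p of 2.14e-08 or less. H2BC21, at 0.61 (SE 0.33), was not called.

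Between HEK293T and liver bud progenitors, 44 of 64 members had a lower enrichment in HEK293T and 0 a higher one, where 28.5% of all genes were called, 15.5% higher and 12.9% lower. H4C4 differed by -4.21 (SE 0.12), H4C3 by -4.07 (SE 0.08) and H4C5 by -3.08 (SE 0.08). Both comparisons use the same liver bud libraries, so their values are given side by side and not as independent results.

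HEK293T and neurons, the pair in which histone mRNA was lower in P-bodies of both, still differed for some members. Enrichment was lower in HEK293T for 21 and higher for 2 of 64 members, where 13% of all genes were called, 6.45% higher and 6.59% lower, and the members' median was -0.76 against -0.16 for all genes. H4C4 (-2.08), H2AC13 (-1.98) and H4C3 (-1.01) were among the lower calls. The 2 higher calls rested on few counts. H4C12 had counts of 0 and 6 in HEK293T P-bodies and 0 and 0 in its cytoplasm, so that its difference of 5.61 (edgeR adjusted p = 0.0498) rested on 1 library and was 1.32 without it. H2AC7 (4.82, edgeR adjusted p = 0.0231) rested on its absence from neuronal P-bodies and lost its call when either P-body library of the neurons was left out, with adjusted p of 0.0633 and 0.0813, and without either HEK293T cytoplasm library or the first neuronal one, as H4C12 did without any of the 4 cytoplasm libraries. Without the second HEK293T cytoplasm library, 12 members were called lower.

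Liver bud progenitors and neurons can also be compared directly within a fraction. In the cytoplasm, 13 of 63 members were higher and 21 lower in neurons, where 52% of all genes were called, 26.1% higher and 25.9% lower, and the median of -0.29 lay near that of all genes, -0.16. Without the second liver bud cytoplasm library 10 members were called lower. In P-bodies, 1 of 64 members was higher and 50 were lower in neurons, where 41% of all genes were called, 18.3% higher and 22.7% lower, with medians of -1.92 for members and 0.18 for all genes. Of those 50, 19 were also lower in neuronal cytoplasm, 9 were higher there and 22 were not called, a split not counted over all genes. The levels of these mRNAs thus parted more in the granules than around them, which is the difference that the interaction tested.

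H4C5 changed in opposite directions in the fractions. In the cytoplasm it had 689 and 689 CPM in neurons and 256 and 303 in liver bud progenitors, a log2 change of 1.68 (SE 0.07). In P-bodies it had 384 and 390 CPM in neurons and 644 and 615 in liver bud progenitors, a change of -0.84 (SE 0.07, edgeR adjusted p = 4.52e-06). H4C3 had overlapping cytoplasm libraries, at 200 and 218 CPM in neurons and 215 and 202 in liver bud progenitors, so that its fitted change there (0.39, SE 0.08) rests on the TMM scaling. In P-bodies, at 108 and 117 CPM against 832 and 733, it changed by -2.94 (SE 0.09). The 1 member higher in neuronal P-bodies was H2BC21, at 37.4 and 29.9 CPM against 5.97 and 7.79 (2.14, SE 0.25), and it was higher in neuronal cytoplasm too (1.70, SE 0.16).

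**Figure D3:**
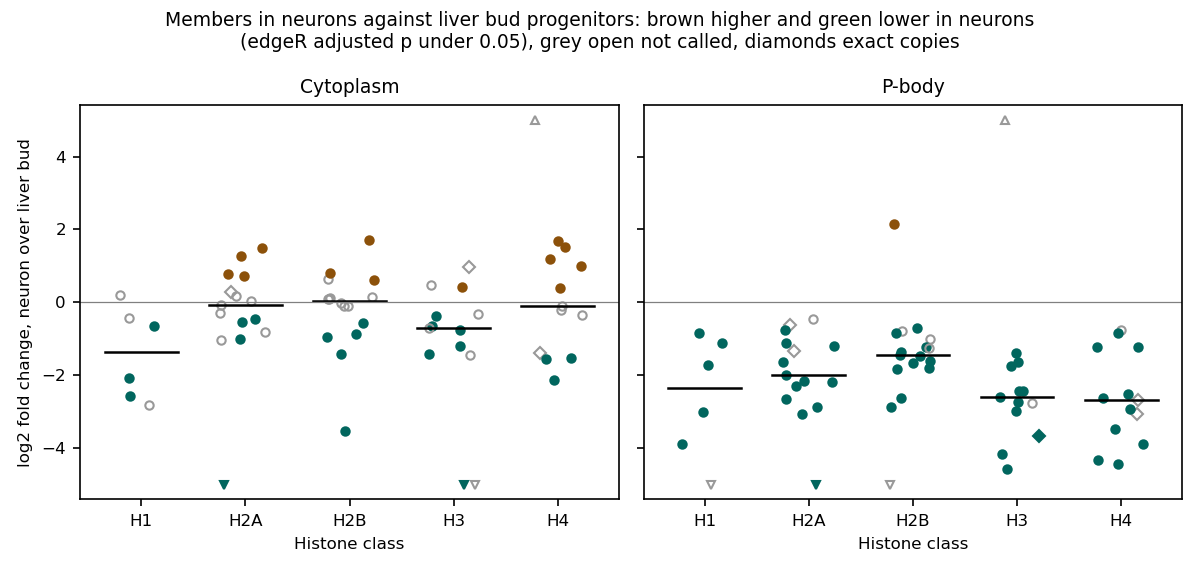
Log2 fold change of each member, neurons over liver bud progenitors, in the cytoplasm (left) and in P-bodies (right), by class, from edgeR, with 1 point per gene, black bars at class medians, brown for called higher and green for called lower in neurons, grey open points for not called, diamonds for genes with an exact copy, and triangles for values beyond 5 drawn at the edge. The cytoplasm holds 13 members called higher and 21 lower, and P-bodies 1 higher (H2BC21) and 50 lower.

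Cell types can differ in how many cells are copying DNA, and in bulk libraries fewer such cells and less RNA per cell cannot be told apart. The 10 cycling markers, genes of mitosis such as TOP2A and BUB1, summed to 3275 and 3270 CPM in liver bud cytoplasm and to 1313 and 1440 in neuronal cytoplasm. In P-bodies they summed to 3275 and 3251 CPM in liver bud progenitors and 2943 and 3238 in neurons. By gene, 0 of the 10 were called higher and 9 lower in neuronal cytoplasm (median log2 change -1.42, against -0.16 for all genes). In neuronal P-bodies 0 were called higher and 7 lower (median -1.17, against 0.18 for all genes). Over all genes, 26.1% were higher and 25.9% lower in neuronal cytoplasm, and 18.3% and 22.7% in neuronal P-bodies. Over the same P-body libraries the histone members summed to 3920 and 3706 CPM in liver bud progenitors and 1156 and 1176 in neurons. The 28 S phase genes, which serve DNA replication, summed to 1718 and 1735 CPM in liver bud cytoplasm and 1113 and 1128 in neuronal cytoplasm. Their P-body sums were 1813 and 1803 CPM in liver bud progenitors and 1403 and 1519 in neurons. By gene, 9 were called higher and 12 lower in neuronal cytoplasm (median log2 change -0.26, against -0.16 for all genes). In neuronal P-bodies 7 were called higher and 10 lower (median -0.36, against 0.18 for all genes). The part of cell cycle state in the histone values was not tested.

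Which genes carry each class also differed between cell types. H4C3 and H4C5 have coding sequences of the same length, 309 bases, so their levels can be set side by side. In HEK293T cytoplasm H4C3 had 3240 CPM per kilobase of coding sequence and H4C5 2055. In liver bud cytoplasm the order was turned, with H4C5 at 905 and H4C3 at 674, and in neuronal cytoplasm H4C5 had 2230 and H4C3 676. In each of the 3 the libraries of these genes did not overlap. H2AC6 came next per kilobase of coding sequence, at 987, 358 and 305 in the same order, but per kilobase of its longest transcript it ranked 10, 11 and 9. H4C5 alone made up 33.5% of the members' CPM in neuronal cytoplasm and 13.1% in liver bud cytoplasm.

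Several members present in the stem cell derivatives were near or at 0 in HEK293T. In all, 11 members had 3 counts or fewer in every HEK293T library, against 0 in liver bud progenitors and 3 in neurons, and 9 of the 11 were above 3 counts in every liver bud library. The same was not counted over all genes, so these counts are not read as particular to the members. Cell type and library kind cannot be told apart here either. Among the 11, named after their values were seen, H4C6 had 1, 1, 0 and 0 counts in HEK293T, while it had 79.6 and 89.97 CPM in liver bud P-bodies and 36.6 and 39.7 in the cytoplasm. H4C13 had 0 counts in all 4 HEK293T libraries and 36.2 and 42.0 CPM against 13.3 and 14.2 in liver bud progenitors. H1-1, the top H1 gene of liver bud progenitors, had 0 and 1 counts in HEK293T P-bodies and 6 and 2 in the cytoplasm, and H3C4, the top H3 gene there, had 10 and 7 against 7 and 10. The 2 not above the floor in every liver bud library were H1-6 and H2BC1, both known as testis histones. Fold changes of these genes in HEK293T rest on few reads and were not called.

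**Figure D4:**
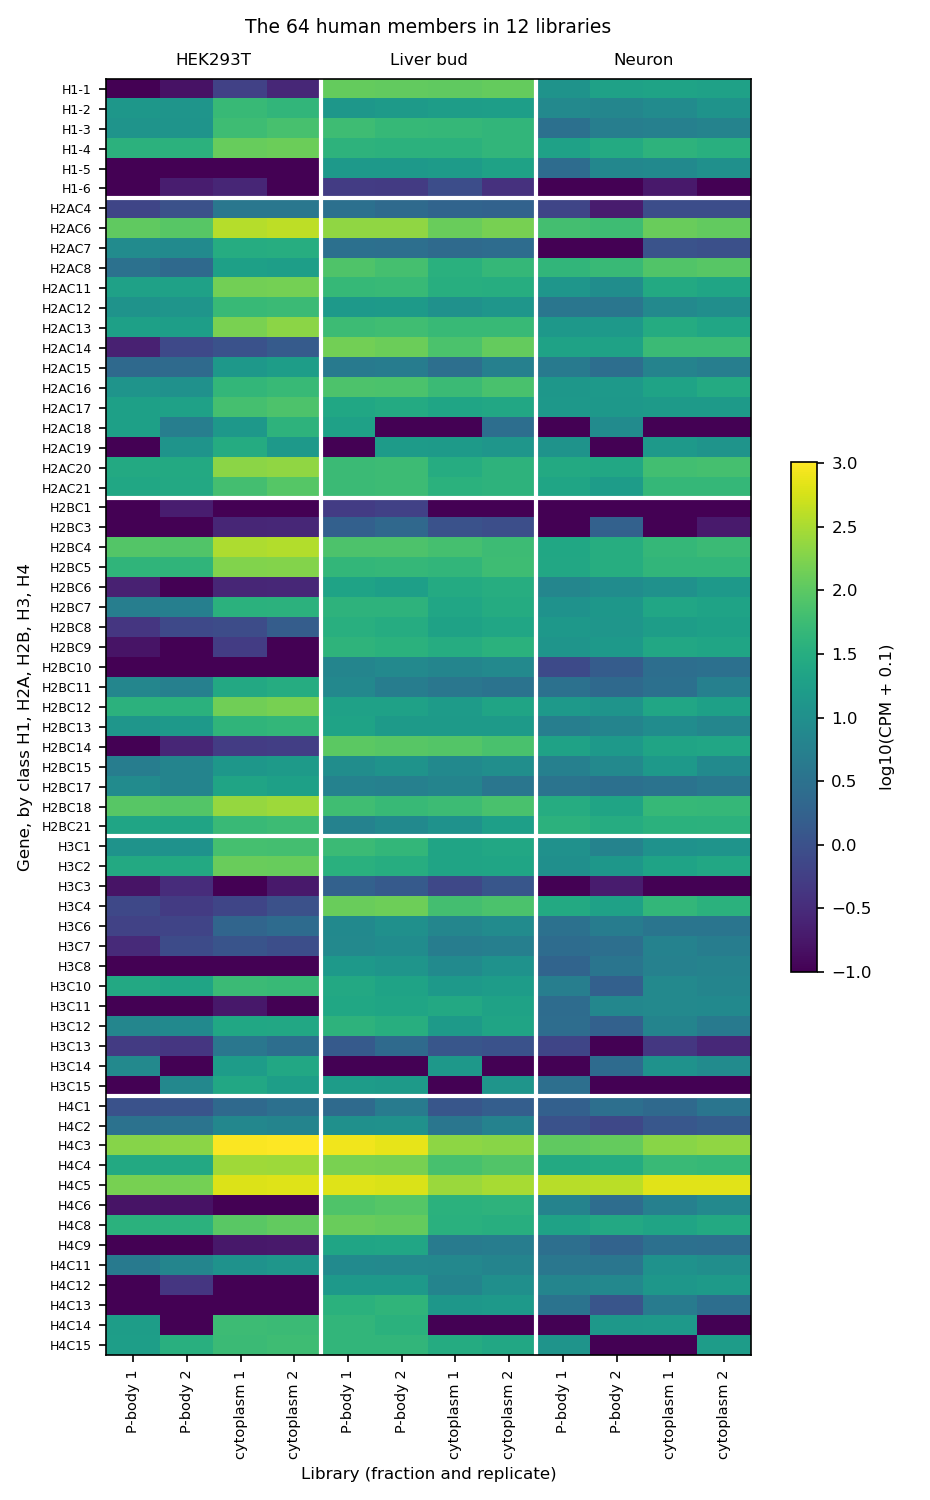
Level of each of the 64 human members (vertical, grouped by class with white lines) in each of 12 libraries (horizontal, grouped by cell type), as log10 of CPM plus 0.1. H4C3 and H4C5 are bright in all 12, H1-5, H2BC10, H3C8 and H4C13 are at 0 in the 4 HEK293T libraries, and the copy pairs such as H4C14 and H4C15 switch between 0 and a high value from library to library.

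Exact copies limit what can be said of single genes. H2AC18 and H2AC19, H3C14 and H3C15, and H4C14 and H4C15 are pairs with identical coding sequence on chromosome 1, and in 25 of 36 pair and library values 1 copy was at 0 while the other held reads. H4C14 had 416 and 378 counts in liver bud P-bodies and 0 and 0 in cytoplasm, where H4C15 had 183 and 190. This split makes the separate values of H4C14 and H4C15 uncertain. Summed, which was chosen after seeing the data, H4C14 and H4C15 changed by 1.81 (SE 0.11) in liver bud cells, by -1.58 (SE 0.09) in HEK293T and by -0.47 (SE 0.27, edgeR adjusted p = 0.204) in neurons. The sum of H3C14 and H3C15 changed by 0.49, -2.37 and -2.06 in the same order and was called in each. For H2AC18 and H2AC19 the sum changed by 0.42 (edgeR adjusted p = 0.0461), by -1.30 and by -0.52 (edgeR adjusted p = 0.221). Of all 64 members, 46 have no 100-base stretch in common with another and 11 have under 50% of theirs unique.

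**Figure D5:**
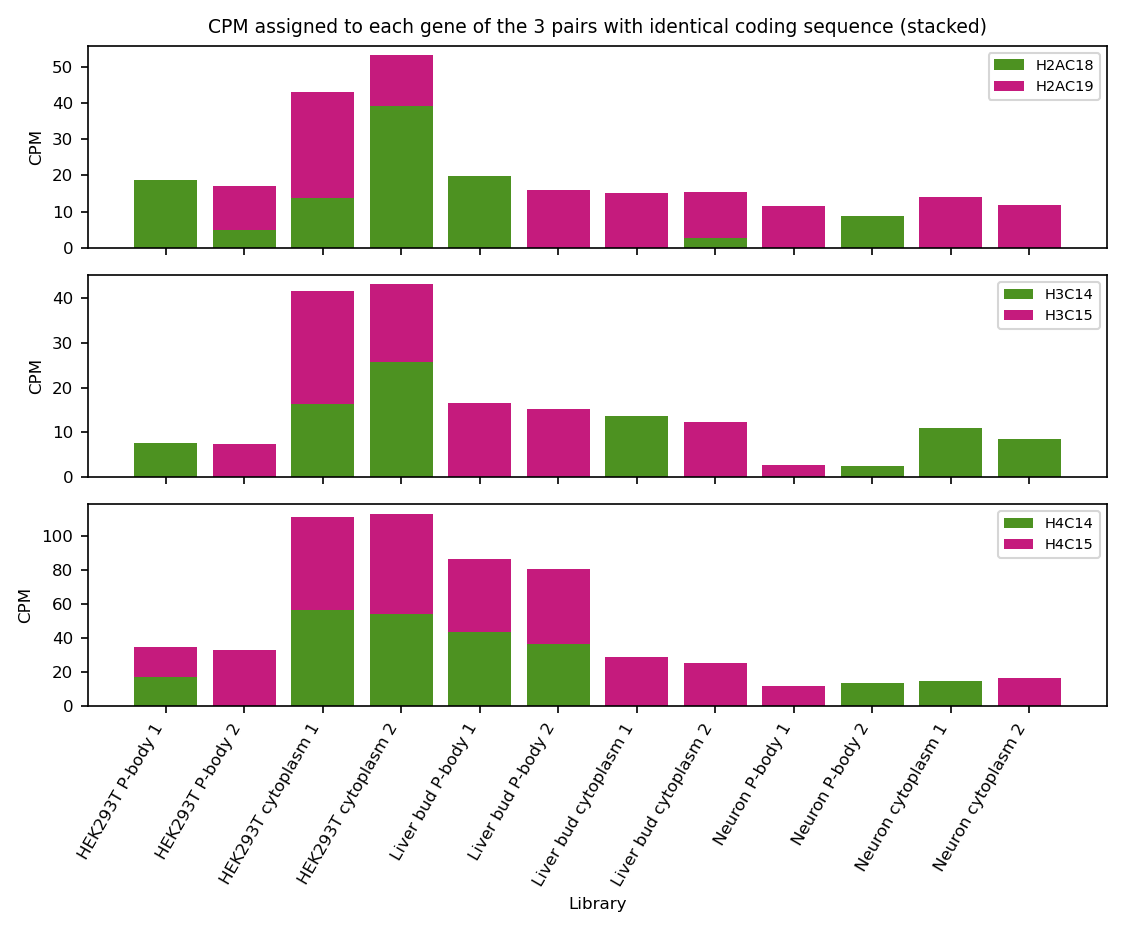
CPM assigned to each gene of the 3 pairs with identical coding sequence, as stacked bars from 0 in each of 12 human libraries, with a panel per pair. In 25 of 36 bars 1 colour is missing, as for H4C14 in liver bud cytoplasm, while all 36 bars hold reads of the pair.

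Members with a long annotated transcript were compared with the rest, leaving out the exact copies. In liver bud progenitors the 8 such members had a median of 0.47, with 4 called higher and 2 lower, and the 50 others a median of 0.73, with 30 higher and 0 lower. In HEK293T the medians were -1.31 and -1.96, and in neurons -0.92 and -0.99. The direction was the same in both sets of members in each cell type. Gene tables do not tell which transcript the reads came from, so reads of long and stem-loop forms were not separated.

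The machinery of histone mRNA was read from 29 genes in the tables. HEK293T had 13 of them higher and 8 lower in P-bodies, liver bud progenitors 15 and 7, neurons 8 and 8, and mESC 13 and 7. Over all genes, 19.5% were higher and 23% lower in HEK293T, and 21.7% and 17.3% in liver bud progenitors. In neurons the shares were 14.8% and 14.5%, and in mESC 26.1% and 21.4%. The factors' median log2 changes were 0.2, 0.44, 0.06 and 0.22 in that order, against -0.01, -0.09, 0.19 and -0.11 for all genes. SLBP, which binds the stem loop, had 77.1 and 80.2 CPM in HEK293T P-bodies and 78.1 and 71.7 in cytoplasm (0.20, edgeR adjusted p = 0.0372), with overlapping libraries. In liver bud progenitors it had 23.3 and 20.5 CPM against 18.8 and 18.0 (0.44, edgeR adjusted p = 0.0184), and in neurons 15.4 and 13.3 against 13.2 and 11.5 (0.05, edgeR adjusted p = 0.918). SLBP mRNA thus did not follow the members' change of side between HEK293T and liver bud progenitors. Mouse Slbp had 76.0 and 68.5 CPM against 52.3 and 55.3 (0.83, edgeR adjusted p = 1.71e-15).

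The mRNAs of 3 regulators were called higher in P-bodies in all 4 cell types. TUT4, which adds uridines to RNA 3′ ends, had log2 changes of 1.54, 0.68, 2.01 and 1.31 (HEK293T, liver bud, neuron and mESC). NPAT, the activator of histone gene transcription, changed by 1.18, 1.11, 1.39 and 1.47 in the same order. CASP8AP2, a partner of NPAT at histone genes, changed by 1.18, 1.06, 2.14 and 1.39. At the other end, SNRPD3 (-1.70) and SNRPB (-1.25), which encode shared proteins of small nuclear RNPs, were lower in HEK293T, and SYMPK (-1.11), a scaffold of the 3′ end cleavage complex, was lower in liver bud progenitors. Some lower calls recurred among those with the smallest p. UPF1 was lower in HEK293T and mESC, CPSF1 in neurons and mESC, SRRT in liver bud progenitors and neurons, and SYMPK also in mESC.

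Replacement histone genes outside the rule, listed for their polyadenylated mRNAs, give a comparison within the same libraries. Of 12 replacement histone genes, 1 was higher and 6 lower in P-bodies of HEK293T, 3 and 3 in liver bud progenitors, and 0 and 6 in neurons, and in mESC 0 and 5 of 11. Over all genes, 19.5% were higher and 23% lower in HEK293T, 21.7% and 17.3% in liver bud progenitors, 14.8% and 14.5% in neurons, and 26.1% and 21.4% in mESC. Their median log2 changes were -0.73, 0, -0.58 and -0.51 in the same order, against -0.01, -0.09, 0.19 and -0.11 for all genes. H2AZ1, an H2A variant found at promoters, had 57.1 and 59.98 CPM in HEK293T P-bodies and 292 and 227 in cytoplasm (-2.02, SE 0.07). In liver bud progenitors it had 131 and 122 CPM against 63.1 and 59.3 (1.24, SE 0.08). Its libraries did not overlap in either cell type, and its sides were those of the H4 genes.

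The remaining lists were called in both directions. Over all genes, 19.5% were higher and 23% lower in HEK293T, and 21.7% and 17.3% in liver bud progenitors. The shares were 14.8% and 14.5% in neurons, and 26.1% and 21.4% in mESC. Of 26 histone chaperone genes, which escort histones to DNA, HEK293T had 11 higher and 10 lower, liver bud progenitors 12 and 7, neurons 9 and 6, and mESC 10 and 4 of 25. Their median log2 changes were 0.09, 0.07, 0.16 and 0.09, against -0.01, -0.09, 0.19 and -0.11 for all genes. NPM1 was higher in liver bud progenitors (1.48) and neurons (1.80), and IPO4, a histone importin, was lower in HEK293T (-1.57). Among the 28 S phase genes HEK293T had 7 higher and 15 lower, liver bud progenitors 14 and 9, neurons 6 and 5, and mESC 12 and 5. The S phase medians were -0.38, 0.32, 0.1 and 0.16. Of the 10 cycling markers 3 and 5, 3 and 2, 4 and 0, and 6 and 2 were higher and lower in the same order of cell types. The cycling medians were -0.16, 0.1, 0.12 and 0.21. For the S phase and cycling lists the medians of all genes are those given beside the chaperones. P-bodies held more TOP2A in HEK293T (0.86), liver bud progenitors (0.89) and neurons (2.05). Other cycling markers were called lower, among them BIRC5 and PLK1 in HEK293T, PLK1 and CDC20 in liver bud progenitors, and Ccnb2 and Cdc20 in mESC.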

How the data were processed

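Raw read counts, as deposited by the authors, are whole numbers per gene symbol, with 1 table for the 12 human libraries (hg38) and 1 for the 4 mouse libraries (mm10), from paired-end 150-bp reads. Per the study's methods, total RNA libraries were quantified with salmon in the nf-core RNA-seq pipeline on refGene annotation, and Smart-seq libraries with HISAT2 and featureCounts; which of these made the polyA RNA columns is not given in the sources used here. Genes with few reads had been removed, and the smallest gene total is 10 in both tables. Deposited tables of the authors' own comparisons hold fold changes and p-values and were not used.

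Groups came from the labels. The study calls its replicates biologically independent, and with 2 libraries per group p-values measure the spread between these libraries. Replicates differed by more than sampling noise in all 8 groups (chi-square per gene 2.15 to 24.8), so none was counted as a copy of another. Floors cover counting error only.

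Members were all symbols matching the name rule. They and the gene lists were chosen with earlier results of these data known. Fractions, cell types within a fraction and interactions were tested on all genes with edgeR 4.0.16 in R 4.3.3 (TMM, quasi-likelihood with robust fitting, two-sided, no covariate), leaving out genes at 0 in every library compared. The pipeline was tested on simulated counts. Named members are the most abundant of each class and cell type, up to 3 per direction with the smallest p among called members of at least 5 CPM, and exact copies, SLBP, up to 3 called genes per direction of the histone mRNA factors, and up to 2 of the other lists. Coordinates, coding lengths and stem loops came from GENCODE v44. Alternatives were another test (DESeq2 1.42.0), other scalings (library size only, RLE), other filters (none, filterByExpr), the replicate number as a block, a single human fit, other totals for class sums, transcript length, and leaving out each library.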

Additional observations from a re-analysis of the deposited data

Results flagged for a closer look

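By edgeR's interaction test, the members that follow had a fraction effect that differed from one cell type to another, and no explanation was tested. Between neurons and liver bud progenitors, 39 of 64 members had a lower P-body enrichment in neurons, where 8.82% of all genes were called lower. The differences of the H4 genes were -3.16 for H4C3, -2.36 for H4C5 and -2.23 for H4C4 on the log2 scale. Between HEK293T and liver bud progenitors, 44 of 64 members were lower in HEK293T, where 12.9% of all genes were called lower. The differences were -4.07 for H4C3, -3.08 for H4C5 and -4.21 for H4C4. Between HEK293T and neurons, 21 of 64 members were lower in HEK293T, with -2.08 for H4C4, -1.01 for H4C3 and -1.98 for H2AC13. Of all genes, 6.59% were called lower and 6.45% higher in that comparison. Higher enrichment in HEK293T than in neurons was called for H2AC7 (4.82) and H4C12 (5.61), where either value rests on a group at or near 0 counts. The last 2 comparisons set total RNA libraries against polyA RNA libraries, so cell type and library kind cannot be told apart in them. With 2 libraries per group, no group was large enough to test for outlying samples.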

How the results depend on the processing

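Of 236 alternative values for the counts of called members, 206 stayed within 1.5 times the value given and 30 moved beyond it. With DESeq2, 1 member was lower in liver bud P-bodies, 1 was higher in neuronal P-bodies, 1 was higher in mESC P-bodies and 8 were higher in neuronal than in liver bud cytoplasm. With all human libraries in a single fit, 1 was lower in liver bud P-bodies and 45 were lower in neuronal P-bodies. With library size only, 1 was higher in mESC, 1 was higher in the neuron minus liver bud difference, 1 was higher in the HEK293T minus neuron difference, and in neuronal against liver bud cytoplasm 7 were higher and 32 lower. With filterByExpr 1 was higher in the HEK293T minus neuron difference. That scaling by library size moved the median log2 change of all genes to -0.28 in liver bud progenitors, 0.35 in neurons, -0.51 in mESC, 0.58 for neuron minus liver bud, -0.59 for HEK293T minus neuron and -0.52 between the cytoplasms. It split the calls over all genes in mESC into 2602 higher and 6623 lower (4148 and 3405 with TMM), for neuron minus liver bud into 3611 and 977 (2138 and 1965), for HEK293T minus neuron into 459 and 3395 (1436 and 1468) and between the cytoplasms into 4164 and 7277 (5721 and 5671). In liver bud progenitors the split was 3860 and 4900 (4760 and 3800), in neurons 3848 and 2378 (3278 and 3193) and for HEK293T minus liver bud 2619 and 3758 (3458 and 2873). The members of mESC called lower ran from 25 (DESeq2) to 43 (library size only), and those of liver bud progenitors called higher from 28 to 37 over all alternatives. Leaving out each library in turn, where the lone library is assumed to vary like the other group, gave 1 to 2 members higher and 15 to 36 lower in neurons, 0 to 1 higher for HEK293T minus liver bud, 0 to 2 higher and 12 to 25 lower for HEK293T minus neuron, 10 to 21 lower between the cytoplasms and 1 to 2 higher between the P-bodies. Summed over all members, the log2 ratio of P-bodies to cytoplasm under TMM and without ribosomal RNA was -1.99 and -2.31 (HEK293T), 1.02 and 0.69 (liver bud), -0.98 and -1.01 (neurons), and -0.58 and -1.10 (mESC). Per kilobase of the longest transcript the top genes had 2472 (H4C3, HEK293T), 679 (H4C5, liver bud) and 1672 CPM (H4C5, neurons). For the 41 values of named members, 492 of 521 alternatives kept direction and call, 29 kept direction only and 0 turned. The causes of these shifts were not tested.

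Same-numbered replicates did not deviate together (correlation of deviations -0.0713, 0.00536, 0.0453 and 0.021 for HEK293T, liver bud, neuron and mESC libraries), so the numbers were not taken to pair the samples. P-bodies were sorted out of a cytoplasmic suspension, and whether libraries with the same number came from the same preparation is not given in the sources used here. With the replicate block, members called higher and lower were 0 and 39 (HEK293T), 36 and 3 (liver bud), 1 and 27 (neurons), 2 and 36 (mESC), 0 and 39 for neuron minus liver bud, 0 and 45 for HEK293T minus liver bud, 2 and 21 for HEK293T minus neuron, 12 and 21 between the cytoplasms and 1 and 47 between the P-bodies.

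Counts are relative to the library total, so a change in other RNA moves every member. Members under the floor of 0.167 to 0.471 CPM were not detectable at this depth. Reads of near-identical genes were divided by the authors' quantification, and class sums do not depend on that division within a class. Summing the exact copies was chosen after seeing the data.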
